A study of Mus musculus with 20 samples.

Results

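Nuclear genes of the oxidative phosphorylation machinery were followed in mouse left ventricle in 4 sets: succinate dehydrogenase with its assembly factors, the cytochrome bc1 complex, ATP synthase, and the assembly factors of cytochrome c oxidase. They were taken by symbol (names beginning Sdha to Sdhd, Uqcr, Atp5 or Coa with a digit, and Cox10 to Cox20), without pseudogenes named -ps, and with at least 0.5 FPKM (fragments scaled by transcript length and by the mapped fragments of the library) in at least 5 of the 20 libraries. Of 50 rows with such names, 3 were pseudogenes, which reached at most 0.37 FPKM, and the other 47 all passed the minimum. These 47 genes stand among 12775 that passed the same minimum and 25052 listed. The lowest of them was Sdhaf3, at 2.52 ± 0.160 FPKM (SD, n = 5) in WT mice on chow.

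The study sequenced poly(A)-enriched RNA from the frozen left ventricles of 20 male mice, 5 in each of 4 groups. Its question, as the labels give it, was how the heart with and without acetyl-CoA carboxylase 2 (ACC2, gene Acacb) responds to a high-fat diet. All mice carried floxed ACC2 alleles and all received tamoxifen when 8 weeks old, at 20 mg/kg on 5 days. Mice called iKO also carried MerCreMer, a tamoxifen-activated Cre recombinase, and their littermates without it are labelled WT. From 4 weeks after the last injection, and for 16 weeks, each genotype was fed either chow or a high-fat diet (HFD, product D12492 of Research Diets), which gives WT chow, iKO chow, WT HFD and iKO HFD. The labels do not name the promoter that drives MerCreMer, and no group carried the Cre without floxed alleles, so loss of ACC2 and the Cre transgene itself cannot be told apart. In bulk tissue, fewer cells of a type and less RNA per cell cannot be told apart.

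Oxidative phosphorylation couples electron flow through the inner mitochondrial membrane to ATP synthesis, and the heart depends on it for most of its ATP. Complex II (succinate dehydrogenase) oxidises succinate and passes electrons to ubiquinone, and all of its subunits are nuclear encoded. Complex III (cytochrome bc1) passes electrons from ubiquinol to cytochrome c and pumps protons; its cytochrome b is encoded by mitochondrial DNA. Complex V (ATP synthase) lets protons back through a membrane ring of subunit c, and the rotation drives ATP synthesis in the catalytic F1 head, which a peripheral stalk holds in place. Complex IV (cytochrome c oxidase) needs many dedicated factors that deliver copper and haem or guard its mitochondrially made core subunits. Acetyl-CoA carboxylase 2 makes malonyl-CoA at the outer mitochondrial membrane, where it inhibits entry of long-chain fatty acids.

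By role, the genes were 4 subunits of complex II, 4 complex II assembly factors, 8 subunits of complex III, 5 subunits of the ATP synthase F1 head, 10 of its stalk and membrane part, 2 other genes named after ATP synthase, and 14 cytochrome c oxidase assembly factors. Subunit c of ATP synthase is made from 3 genes, Atp5g1, Atp5g2 and Atp5g3, whose different targeting peptides are removed after import. The coding sequences of the mature subunit (75 codons and the stop, read from GENCODE M21 transcripts on GRCm38) are shown because they determine how reads can be assigned to each gene. They lie on the minus strand within chr11:96073104-96073635 (Atp5g1), chr15:102663014-102665166 (Atp5g2) and chr2:73908593-73909296 (Atp5g3), each in exons. Capitals mark the positions at which the 3 genes differ.
Atp5g1: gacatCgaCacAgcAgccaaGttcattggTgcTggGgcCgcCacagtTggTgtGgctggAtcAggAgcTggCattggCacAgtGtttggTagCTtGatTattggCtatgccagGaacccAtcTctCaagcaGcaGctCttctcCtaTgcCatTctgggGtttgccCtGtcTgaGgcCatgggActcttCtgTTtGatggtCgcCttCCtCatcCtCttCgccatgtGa
Atp5g2: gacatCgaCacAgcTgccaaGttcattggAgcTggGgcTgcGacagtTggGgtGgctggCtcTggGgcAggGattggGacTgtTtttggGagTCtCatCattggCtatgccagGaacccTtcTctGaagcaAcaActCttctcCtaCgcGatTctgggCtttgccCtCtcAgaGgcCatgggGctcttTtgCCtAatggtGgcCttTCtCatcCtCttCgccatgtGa
Atp5g3: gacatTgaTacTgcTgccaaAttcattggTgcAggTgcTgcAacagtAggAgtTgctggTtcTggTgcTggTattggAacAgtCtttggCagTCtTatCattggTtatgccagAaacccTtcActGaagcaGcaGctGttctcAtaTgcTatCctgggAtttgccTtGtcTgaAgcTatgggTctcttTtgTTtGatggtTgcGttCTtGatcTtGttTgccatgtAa
The genes differed at 58 of 228 positions, 52 of them at codon position 3. All 53 codons that differed encoded the same residue or the stop, so the mature subunit was the same from each gene. Atp5g1 and Atp5g2 were 85.1% identical, Atp5g1 and Atp5g3 79.8%, and Atp5g2 and Atp5g3 78.5%, and the longest run shared by any pair was 21 bases. A processed pseudogene on chromosome 7, Gm10175, matched the Atp5g2 coding stretch at all 228 positions, and a 100-base read from it could have come from either.

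Nuclear genes of the respiratory chain are known for binding sites of ETS factors (GABP), NRF-1, ERR factors and YY1 near their starts. Promoter windows from RefSeq (GRCm38.p6, 250 bases before to 50 after the start) matched 36 of the 47 genes by symbol, 4 of them with more than 1 window. Both strands were searched, and matches of different motifs may overlap. The ETS motif CCGGAAG was in the windows of 18 of 36 genes (50.0%), against 20.0% of 9500 matched tested genes and 9.9% of all 27025 genes in the table. It was in 9 of 21 matched subunit genes and 9 of 15 matched other genes. The NRF-1 motif GCGCATGCG was in 5 (13.9%), all of them subunit genes, against 4.1% of tested genes. The ERR element AAGGTCA was in 5 (13.9%), against 3.9%, and the YY1 motif AAGATGG in 4 (11.1%), against 8.4%. At least 1 of the 4 motifs was in the windows of 22 genes. A match is a description of these letters and not a site. Stretches of 29 bases around the ETS motif, in capitals in the orientation of the gene, are shown for Atp5h and Cox20, which fell on HFD in iKO mice as deposited, and for Sdhd, Uqcrh and Uqcr11, which did not pass that test.
Atp5h: caaggagagaaCTTCCGGcaactctcttc
Cox20: gccagggcgggCTTCCGGacagccccagg
Sdhd: ccgtctcctgcCTTCCGGttcacgcttca
Uqcrh: agtatgccgcaCTTCCGGccaggtcgccg
Uqcr11: ttctctcctccCCGGAAGtagatgtcaat
They lie at chr11:115419940-115419968 on the minus strand (Atp5h), chr1:178319039-178319067 on the plus strand (Cox20), chr9:50603878-50603906 on the minus strand (Sdhd), chr4:116075063-116075091 on the minus strand (Uqcrh) and chr10:80406870-80406898 on the minus strand (Uqcr11). The motif thus occurred in genes that passed a test of diet and in genes that did not.

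Depth, estimated from the steps between low values, was 12.6 to 31.6 M reads per library. In WT it was 19.5 to 22.65 M on chow and 23.95 to 31.6 M on HFD, without overlap. In iKO it was 12.55 to 24.2 M on chow and 20.15 to 29.45 M on HFD. The part of depth in the diet differences was not tested. Acacb, the targeted gene, was at 37.5, 41.1, 39.3, 37.4 and 37.8 FPKM in WT chow and at 8.55, 9.46, 9.17, 9.19 and 8.37 FPKM in iKO chow. On HFD it was at 39.7, 35.8, 36.6, 41.9 and 34.9 FPKM in WT and at 11.4, 10.6, 10.1, 9.05 and 11.9 FPKM in iKO. No iKO library reached any WT library, which fits the labels. All 10 cardiomyocyte markers were present, with summed levels of 31690 to 32850 FPKM in WT chow, 31600 to 35820 in iKO chow, 24320 to 30920 in WT HFD and 26070 to 28030 in iKO HFD. All 11 fibroblast markers were tested and none was at 0. Their sums were 699.5 to 839.7 FPKM in WT chow, 765.8 to 1626 in iKO chow, 710.9 to 814.3 in WT HFD and 702.4 to 1437 in iKO HFD. Their score (the mean log2 deviation of the markers from their means over all libraries) was high in 5 iKO libraries, at 0.93 in RT4, 0.53 in RT2, 0.46 in RT17, 0.40 in RT13 and 0.39 in RT15, and at most 0.08 in the other 15. The atrial gene Myl7 was at 145.2 FPKM in RT1 and 30.8 in RT4 and at most 2.88 elsewhere. Mitochondrially encoded genes took 32.5% to 33.6% of all FPKM in WT chow, 30.1% to 33.9% in iKO chow, 34.2% to 36.5% in WT HFD and 34.5% to 35.9% in iKO HFD. That share did not overlap between chow and HFD, and FPKM add up to a total set by all genes, so each comparison is also given after median-of-ratios scaling (division of each library by the median ratio of its genes to their geometric means). The mean size factors were 1.01 in WT chow, 1.06 in iKO chow, 0.940 in WT HFD and 0.994 in iKO HFD.

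Transcripts of most subunits were among the most abundant of the heart, and those of most assembly factors were lower. Exceptions in WT chow were the assembly factors Cox17 (232.6 FPKM) and Cox14 (102.2) and the subunit gene Atp5g2 (18.5). Cox17 lay above the subunit gene Sdhc (169.5). In WT chow 26 of the 27 subunit genes were at 100 FPKM or more, against 28 of all 47, and 44 of the 47 lay above the median of the tested genes, 5.42 FPKM. Levels here are per length and can be set between genes.

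The 4 complex II subunits spanned a 3.30-fold range in WT chow. Sdhb, the iron-sulfur subunit, was the highest at 559.5 ± 27.9 FPKM (SD, n = 5), followed by Sdha, the flavoprotein that oxidises succinate, at 530.1 ± 16.8. Sdhd was at 364.6 ± 9.95 and Sdhc at 169.5 ± 8.81 FPKM, although these membrane anchors are present in equal number in the complex. Sdha and Sdhb overlapped between libraries, and Sdhd and Sdhc were each separate from their neighbours. The assembly factors were lower, from Sdhaf3 to Sdhaf4, which helps the flavoprotein to assemble, at 43.0 ± 3.02 FPKM.

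The 8 complex III subunits with names beginning Uqcr spanned only a 1.73-fold range, and subunits with other names were not included. Uqcrc2, a core subunit, was the lowest at 550.6 ± 8.20 FPKM. Uqcrh, the hinge protein that helps cytochrome c to dock, was the highest at 954.4 ± 38.5. Uqcrfs1, the Rieske iron-sulfur protein, was at 554.5 ± 23.1 FPKM. In the F1 head, Atp5b, the catalytic beta subunit, was at 2277 ± 46.7 FPKM and Atp5d, the delta subunit of the central stalk, at 406.1 ± 23.7. Atp5a1, the alpha subunit, was at 1545 ± 25.5 FPKM.

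The stalk and membrane part had the widest range, 99.1-fold, because 1 subunit c gene, Atp5g2, was listed at 18.5 ± 2.05 FPKM and another, Atp5g3, at 1830 ± 72.4. Apart from Atp5g2 the lowest was Atp5j2, subunit f, at 437.9 ± 17.9 FPKM. Among the cytochrome c oxidase factors the range was 63.5-fold. Cox17, a copper chaperone, was at 232.6 ± 14.3 FPKM, and Cox18, which helps to insert subunit 2 into the membrane, was at 3.66 ± 0.351. Atp5s was at 11.9 ± 0.457 FPKM, and Atp5sl, a gene known for complex I assembly despite its name, at 18.4 ± 0.785.

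**Figure D1:**
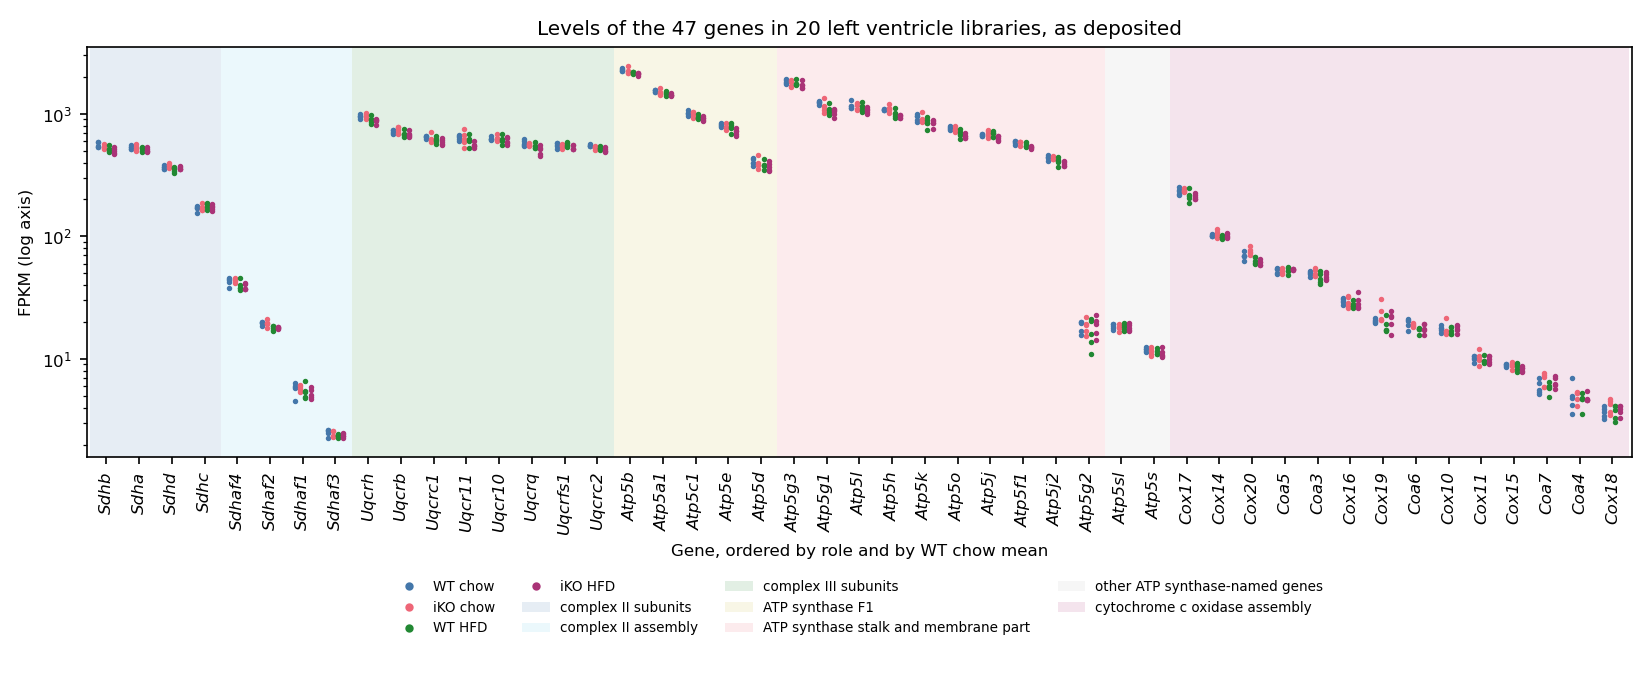
Each point is 1 library's level in FPKM, as deposited, on a log axis, for the 47 genes ordered by role, with the 4 groups in colours. Complex III subunits lie close together, from 550.6 to 954.4 FPKM in WT chow means, and the cytochrome c oxidase factors spread from 3.66 to 232.6.

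On chow, none of the 47 genes passed the test between iKO and WT. Limma on log2(FPKM + 1), adjusted by Benjamini-Hochberg over all 12775 genes, called 1.06% of all genes in this comparison at an adjusted p below 0.05, 44 higher and 92 lower. The 47 genes had a median log2 difference of -0.016, against 0.050 over all tested genes, and 27 lay below 0. The differences ran from -0.11 for Atp5g1 to 0.18 for Cox19, a copper-pathway factor. For 44 of 47 genes the 95% interval of the difference lay within 1.25-fold in either direction.

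The smallest p was that of Cox20, the chaperone of newly made cytochrome c oxidase subunit 2, with a difference of 0.13 ± 0.05 (SE) and an adjusted p of 0.269 by limma. No other of the 47 had an unadjusted p below 0.05, against 13.5% of all genes. Sdha was at 511.3, 540.1, 515.7, 531.5 and 551.8 FPKM in WT chow and at 504.5, 500.7, 513.5, 566.2 and 538.0 in iKO chow. Those 2 groups overlapped over most of their range, and the difference was -0.02 ± 0.04 (adjusted p = 0.896).

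After scaling, 0 of 47 were called on chow, where the background was 1.16%. All 27 subunit genes then lay below 0, and 43 of the 47 in all. The median was -0.076 against about 0 over all genes, and the smallest adjusted p was 0.381. Without the 5 libraries with high fibroblast scores, of which 2 are iKO chow, the median was 0.0098 as deposited and -0.024 after scaling. With the fibroblast score as a covariate it was 0.022 and 0.011. High scores occurred only in iKO libraries, so these fits cannot tell the score from genotype.

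On HFD, none of the 47 passed the test between iKO and WT either, where limma called 0.172% of all genes, 13 higher and 9 lower. The median was -0.039 against 0.063 over all genes. The subunit genes and the cytochrome c oxidase factors lay on different sides of 0: 25 of 27 subunit genes were below it and 11 of 14 factors above it. Only 25.6% of all genes lay below 0 here, so the factors lay on the same side as most genes. The split between subunit genes and factors was not tested. Differences ran from -0.13 for Uqcr11, a small complex III subunit, to 0.18 for Atp5g2, and 45 of 47 intervals lay within 1.25-fold.

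An unadjusted p below 0.05 was found for 5 genes, all subunits: Uqcrq, Atp5e, Atp5j, Atp5f1 and Uqcrfs1. Over all genes 15.2% had one. The first of these, Uqcrq, encodes the complex III subunit that sits beside cytochrome b. Uqcrq was at 523.2, 530.6, 546.2, 551.0 and 585.4 FPKM in WT HFD and at 551.3, 454.5, 471.6, 513.5 and 522.3 in iKO HFD. The ranges overlapped, with RT11, the first of the iKO HFD libraries, among the WT values, and the difference was -0.12 with an adjusted p of 0.254 by limma. The F1 epsilon subunit Atp5e differed by -0.13 (adjusted p = 0.264), and Atp5j, coupling factor 6 of the stalk, by -0.11 (adjusted p = 0.273).

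After scaling the differences were wider and still 0 of 47 were called (background 0.196%). The median was -0.11, 44 of 47 lay below 0, and 18 had an unadjusted p below 0.05, 16 of them subunits, against 11.8% of all genes. Below 0 were 26 of 27 subunit genes and 12 of 14 cytochrome c oxidase factors, so the split seen as deposited was not kept. The scaled mean score of the 47 genes was -0.090 in RT13, -0.11 in RT15 and -0.088 in RT17, the 3 iKO HFD libraries with high fibroblast scores, and 0.047 in RT11 and 0.028 in RT20. In WT HFD the score of RT19 stood apart at 0.23, with the others from -0.047 to 0.041. Without the 5 libraries with high fibroblast scores the median was 0.0053 as deposited and -0.030 after scaling. Those fits kept only RT11 and RT20 in iKO HFD. With the score as a covariate the median was -0.0015 and -0.038. All high scores were in iKO libraries, so the score and genotype cannot be told apart here.

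**Figure D2:**
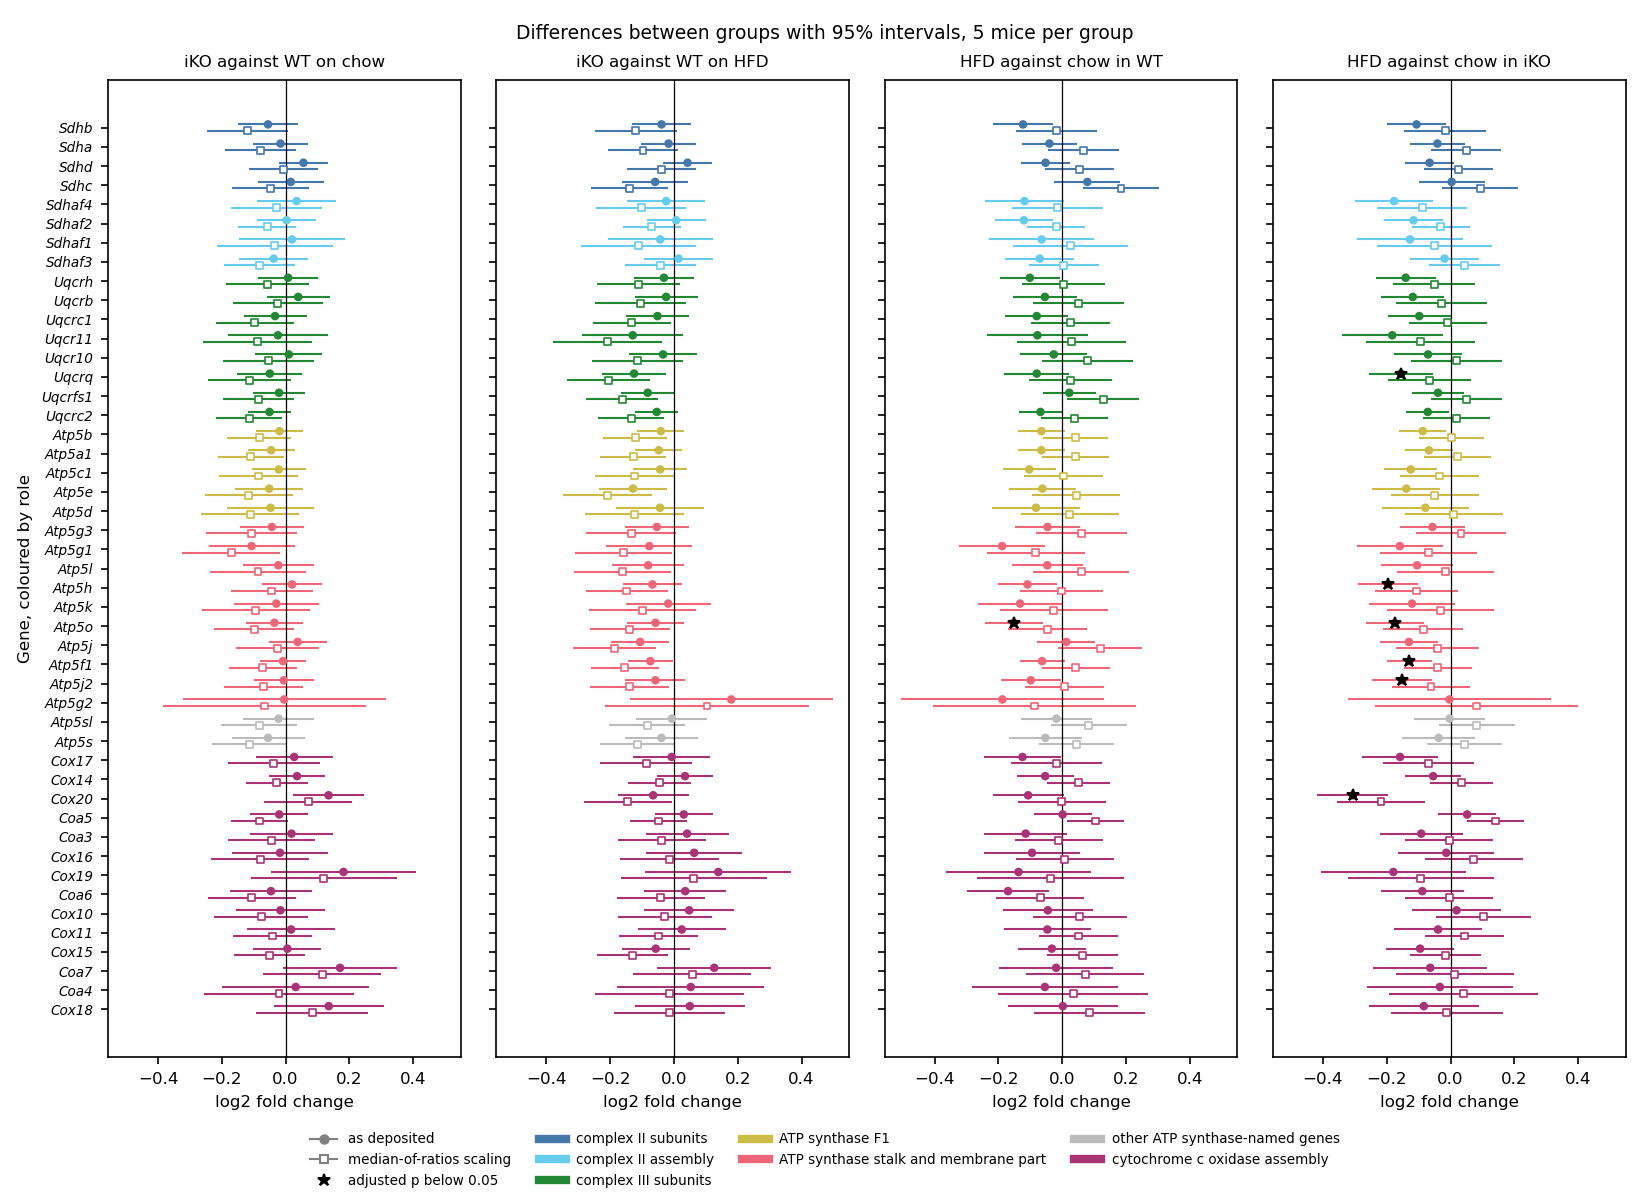
Log2 differences with 95% intervals of the 47 genes in the 4 pairwise comparisons, filled as deposited and open after median-of-ratios scaling, coloured by role, with stars at an adjusted p below 0.05. Stars stand only in the diet comparisons as deposited, 1 in WT and 6 in iKO, and the open points lie left of the filled ones between genotypes and right of them between diets.

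HFD against chow in WT called 1 of the 47 genes as deposited, Atp5o, which was lower. Limma called 8.04% of all genes, 98 higher and 929 lower (7.27% lower), so that a share of 1 in 47 lay below the background. The median of the 47 genes was -0.065 against -0.084 over all genes, 42 of 47 lay below 0, and 78.6% of all genes did so too. An unadjusted p below 0.05 was found for 11 of the 47, against 25.6% of all genes.

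Atp5o encodes OSCP, the subunit that joins the peripheral stalk to the F1 head. It was at 743.3, 788.0, 750.0, 760.1 and 780.9 FPKM in WT chow and at 681.0, 628.0, 708.5, 670.9 and 756.0 in WT HFD. Of the WT HFD libraries only RT19, the last, reached the chow range. The log2 difference was -0.15 ± 0.04 (SE; adjusted p = 0.0343 by limma). Leaving out 1 library at a time ended this call for RT3, RT8, RT10, RT12, RT14 or RT18, with adjusted p up to 0.0936.

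The widest difference was that of Atp5g1, -0.19 ± 0.07 (adjusted p = 0.0721). Atp5g1 was at 1181, 1274, 1222, 1244 and 1238 FPKM in WT chow and at 1042, 981.1, 1067, 1102 and 1224 in WT HFD. Only RT19 of the WT HFD libraries overlapped the chow range. Sdhb differed by -0.12 ± 0.04 (adjusted p = 0.0880), and Coa6, a copper-delivery factor, by -0.17 ± 0.06 (adjusted p = 0.0896). Groups did not overlap for 1 of the 47, Atp5b, with a difference of -0.07 (adjusted p = 0.254). It was at 2118.89 to 2213.22 FPKM on HFD and 2224.94 to 2344.33 on chow. The share of all tested genes without overlap is not given here.

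After scaling, no gene was called (background 2.56%), 34 of 47 lay above 0, and the median was 0.034. Of the 47 genes 29 changed the sign of their difference. The largest scaled difference was that of Sdhc, the membrane anchor, at 0.18 ± 0.06 (adjusted p = 0.0951). Scaled levels of Sdhc were 163.5, 172.1, 157.1, 169.2 and 175.4 in WT chow and 192.7, 174.7, 193.0, 183.8 and 208.8 in WT HFD, so that only RT14 overlapped with chow. As deposited the difference of Sdhc was 0.08 (adjusted p = 0.324). Sdhc was called higher after scaling without the 5 libraries with high fibroblast scores (adjusted p = 0.0488) or with the fibroblast score as covariate (adjusted p = 0.0279). Those 5 libraries are all iKO, so the first of these fits left the WT values and the difference of 0.18 unchanged. Only the shared spread and the adjustment over all genes moved. Scaled groups did not overlap for 2 of the 47, Coa5 and Atp5j, which were not called. Coa5 was at 50.05 to 53.95 in WT chow and 54.02 to 58.99 in WT HFD, a difference of 0.11. Atp5j was at 660.5 to 676.1 and 680.7 to 816.1, a difference of 0.12.

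HFD against chow in iKO called 6 of the 47 genes as deposited, all lower: Cox20, Atp5h, Atp5o, Atp5f1, Atp5j2 and Uqcrq. These are 4 of the 10 stalk and membrane subunits of ATP synthase, 1 of 8 complex III subunits and 1 of 14 cytochrome c oxidase factors. Limma called 10% of all genes, 211 higher and 1068 lower (8.36% lower), beside 12.8% lower among the 47. The median of the 47 was -0.092 against -0.072 over all genes, and 44 of 47 lay below 0 against 73.8% of all genes. An unadjusted p below 0.05 was found for 19 of the 47, against 25.7% of all genes.

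The widest difference was that of Cox20. It was at 74.8, 71.0, 83.5, 76.7 and 73.5 FPKM in iKO chow and at 65.3, 61.4, 58.7, 61.5 and 58.6 in iKO HFD. All 5 HFD libraries lay below all 5 chow libraries. The log2 difference was -0.31 ± 0.05 (SE; adjusted p = 0.000796 by limma). In WT, Cox20 was at 75.5, 68.9, 62.8, 69.4 and 68.6 FPKM on chow and at 59.3, 61.0, 63.3, 68.2 and 68.3 on HFD, with a difference of -0.11 (adjusted p = 0.214) and overlapping ranges. Both diet differences are parts of the interaction, which for Cox20 was -0.20 (unadjusted p = 0.0153, adjusted p = 0.999), so a difference between genotypes did not pass the test. Cox20 overlaps Hnrnpu on the other strand, and 72.0% of its 100-base windows also occur in Hnrnpu transcripts. Whether the counting used strand is not given in the sources used here, and the value of Cox20 is therefore uncertain. Hnrnpu itself was at 30.5 to 46.3 FPKM and differed by -0.15 between diets in iKO (adjusted p = 0.143) and by -0.18 in WT (adjusted p = 0.0715).

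In the ATP synthase stalk, Atp5h (subunit d) was at 1110, 1015, 1089, 1191 and 1081 FPKM in iKO chow and at 965.0, 926.4, 982.9, 927.3 and 979.8 in iKO HFD. The groups did not overlap, and the difference was -0.20 ± 0.04 (adjusted p = 0.00745). In WT chow Atp5h lay tightly at 1073 to 1098 FPKM, and in WT HFD at 1001, 928.8, 1011, 963.1 and 1115, a difference of -0.11 (adjusted p = 0.130). RT19 was above every WT chow library and the other 4 were below them all.

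Atp5o was at 745.3, 713.7, 742.5, 794.6 and 735.8 FPKM in iKO chow and at 698.9, 637.3, 640.5, 664.5 and 663.4 in iKO HFD. These groups did not overlap, and the difference was -0.18 ± 0.04 (adjusted p = 0.0133). Atp5o was the only one of the 47 genes called between diets in both genotypes as deposited. The 2 genotypes' comparisons use different mice.

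Atp5f1 (subunit b, the long rod of the stalk) was at 589.6, 551.0, 589.9, 584.5 and 589.2 FPKM in iKO chow and at 540.6, 532.0, 516.2, 544.2 and 521.5 in iKO HFD. The groups did not overlap, RT4 being the lowest on chow, and the difference was -0.13 ± 0.03 (adjusted p = 0.0187). In WT the difference was -0.06 (adjusted p = 0.246).

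Atp5j2 (subunit f, in the membrane) was at 442.0, 431.2, 426.3, 455.0 and 425.7 FPKM in iKO chow and at 392.2, 405.1, 374.3, 376.8 and 415.6 in iKO HFD. The groups did not overlap, and the difference was -0.15 ± 0.05 (adjusted p = 0.0368). The call was lost without any 1 of RT2, RT4, RT7, RT11, RT15 or RT17, with adjusted p up to 0.0872.

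Uqcrq was at 563.9, 554.8, 560.2, 573.0 and 541.3 FPKM in iKO chow, where its values lay close together. The iKO HFD values given above overlapped with these through RT11, and the difference was -0.16 ± 0.05 (adjusted p = 0.0456). This call held in only 7 of 20 fits that each left out 1 library, and its adjusted p reached 0.134. After scaling and without the 5 libraries with high fibroblast scores the difference turned to 0.046 (adjusted p = 0.878).

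Groups also did not overlap for 3 genes that were not called. In all, 8 of the 47 had no overlap as deposited and 1 after scaling. The share of all tested genes without overlap is not given here, so these counts have no background. Sdhaf4 differed by -0.18 (adjusted p = 0.0599), Cox17 by -0.16 (adjusted p = 0.0865) and Uqcrh by -0.14 (adjusted p = 0.0513). Uqcrh was at 951.2, 913.3, 949.0, 1008 and 975.9 FPKM in iKO chow and at 884.9, 888.9, 809.3, 869.1 and 899.5 in iKO HFD.

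**Figure D3:**
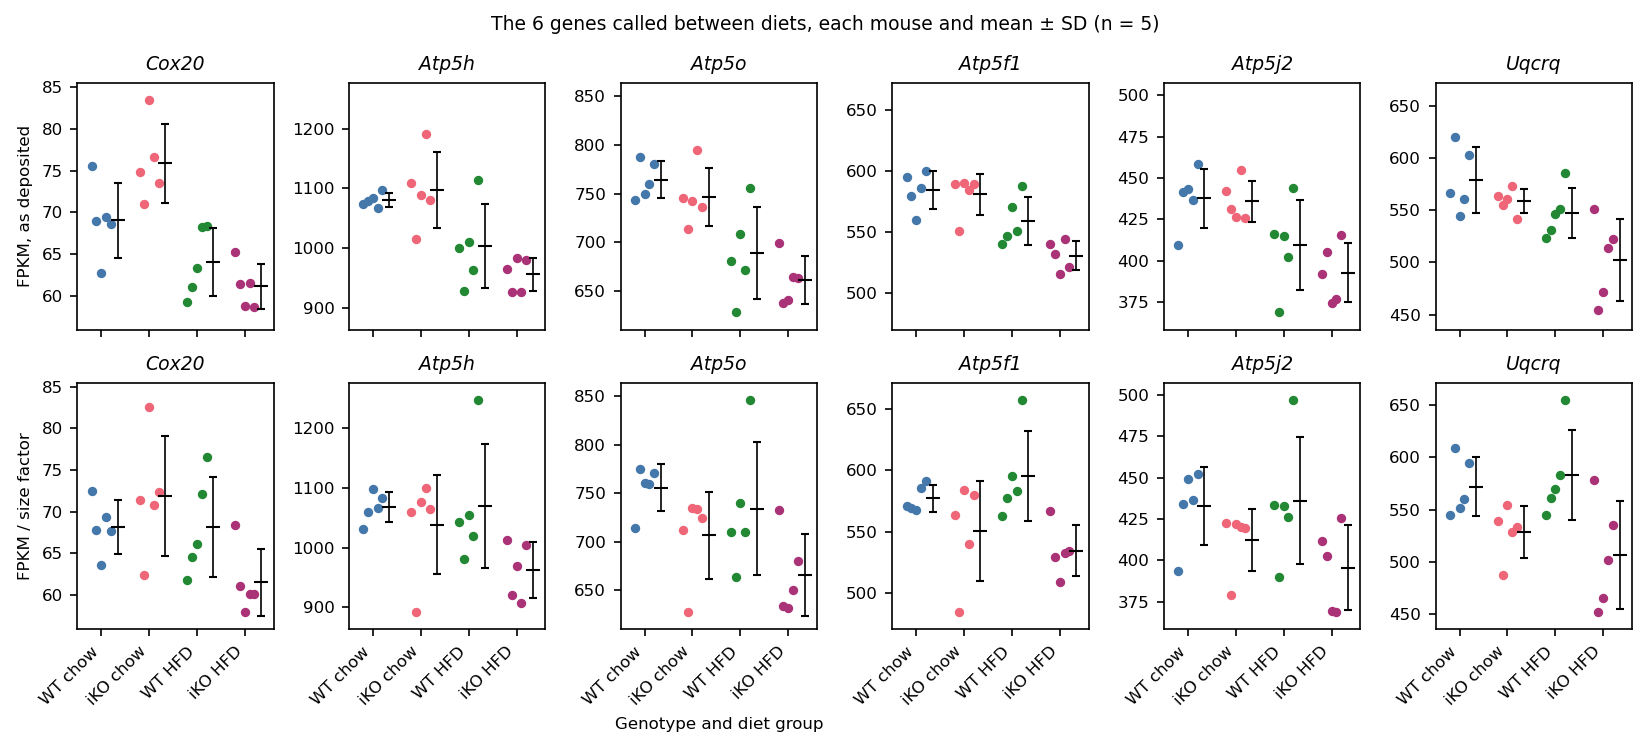
Each mouse's level of Cox20, Atp5h, Atp5o, Atp5f1, Atp5j2 and Uqcrq in the 4 groups, as deposited (top) and divided by the size factor (bottom), with mean ± SD (n = 5); axes do not start at 0. As deposited the iKO HFD values lie below the iKO chow values for 5 of these 6 genes, with Cox20 at 58.6 to 65.3 against 71.0 to 83.5 FPKM, and after scaling the groups overlap.

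After scaling, no gene was called between diets in iKO (background 4.38%), the median was -0.0086, and 21 genes lay above 0 and 26 below. Cox20 kept the widest difference, -0.22 (adjusted p = 0.0680). Scaled levels of Cox20 were 71.4, 62.4, 82.6, 70.8 and 72.4 in iKO chow and 68.5, 61.1, 57.9, 60.2 and 60.1 in iKO HFD. The groups overlapped only between RT4 on chow and RT11 on HFD. The scaled differences of the other 5 ran from -0.11 for Atp5h to -0.04 for Atp5f1, with adjusted p from 0.413 to 0.767. In the other direction, Coa5, a factor for early cytochrome c oxidase assembly, stood 0.14 higher on HFD after scaling (adjusted p = 0.0707). Its scaled groups did not overlap, at 45.7 to 50.9 on chow and 51.5 to 57.0 on HFD. As deposited the difference of Coa5 in iKO was 0.05. In WT the scaled groups of Coa5 did not overlap either, with a difference of 0.11.

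The count in iKO fell without the 5 libraries with high fibroblast scores and rose with that score as a covariate. Without these 5 libraries 1 of the 6 genes remained called as deposited, Cox20 (-0.33, adjusted p = 0.0458), and the median was -0.061. That fit had fewer mice, with only RT11 and RT20 left in iKO HFD. The part of the fibroblast score in the lost calls therefore cannot be told from that of fewer mice. With the fibroblast score as a covariate, and all 20 libraries, 11 were called lower in iKO and 3 in WT. The share of all genes called in that fit is not given here. After scaling with that covariate Cox20 was called lower (-0.25, adjusted p = 0.0102), and after scaling without RT1 and RT4, the libraries with atrial Myl7, it was too (-0.27, adjusted p = 0.0219). Without RT1 and RT4 and as deposited 6 genes were called, but Atp5j2 (adjusted p = 0.0560) and Uqcrq (adjusted p = 0.0897) were not among them, and Atp5j (adjusted p = 0.0316) and the F1 gamma subunit Atp5c1 (adjusted p = 0.0294) were.

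The interaction of genotype and diet called none of the 47 genes as deposited (background 0.0313%, 4 genes, all higher) and none after scaling (background 0.0%). The median was -0.022 as deposited and -0.038 after scaling. Cox20 and Atp5j had an unadjusted p below 0.05 as deposited, with differences of -0.20 and -0.14. For 41 of 47 genes the interval of the interaction lay within 1.25-fold as deposited.

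**Figure D4:**
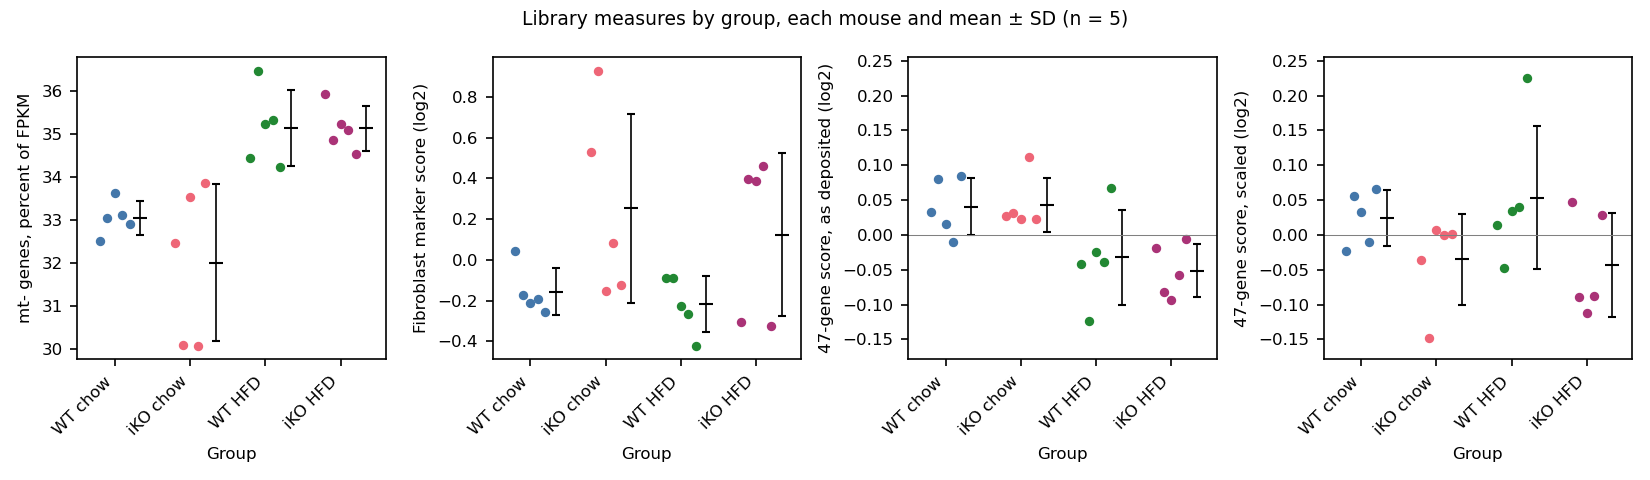
From left, the share of all FPKM taken by mitochondrially encoded genes, the fibroblast marker score and the mean log2 score of the 47 genes as deposited and after scaling, for each mouse with mean ± SD (n = 5). The mitochondrial share does not overlap between chow (at most 33.9%) and HFD (at least 34.2%), and the order of the group means of the 47-gene score changes with scaling.

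The score of the 47 genes sums up how scaling sets the direction. As deposited its group means were 0.041 ± 0.041 in WT chow, 0.043 ± 0.038 in iKO chow, -0.032 ± 0.068 in WT HFD and -0.051 ± 0.038 in iKO HFD (SD, n = 5). After scaling they were, in the same order, 0.024 ± 0.040, -0.035 ± 0.066, 0.054 ± 0.10 and -0.043 ± 0.075. As deposited the lower group means were those on HFD, and after scaling those of iKO mice. The scaled ranges of all 4 groups overlapped. After scaling RT4 stood low in iKO chow at -0.15, with the others from -0.036 to 0.0076. RT19 stood high in WT HFD at 0.23, and in iKO HFD both RT11 and RT20 lay above 0.

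Subunit c transcripts were counted mostly from 2 genes. In WT chow Atp5g3 made up 53.5% of all subunit c FPKM, Atp5g1 36.0%, and Atp5g2 with its copy Gm10175 together 10.5%. The deposited values placed 92.9% to 96.2% of the last sum on Gm10175, which was listed at 275.8 to 411.8 FPKM against 10.9 to 22.9 for Atp5g2. The longest stretch unchanged in Gm10175 differed between Atp5g2 transcripts, from 127 of 753 bases (Atp5g2-203) to 645 of 731 (Atp5g2-202). Reads within such stretches cannot be told apart, and the level of Atp5g2 alone is therefore uncertain.

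The sum of Atp5g2 and Gm10175 was 357.8 ± 6.92 FPKM in WT chow (351.2 to 369.0), 364.5 ± 41.6 in iKO chow (329.3 to 433.6), 329.5 ± 26.5 in WT HFD (286.7 to 349.8) and 334.3 ± 16.4 in iKO HFD (311.8 to 349.3; SD, n = 5). WT HFD lay wholly below WT chow. A 2-sided exact permutation test of the sum gave a log2 difference of -0.12 with p = 0.00794 in WT, the smallest that 252 splits allow, and 0.0317 adjusted over 4 comparisons. In iKO the difference was also -0.12, with overlapping groups and an exact permutation p of 0.151 (adjusted p = 0.302). Between genotypes it was 0.02 on chow and 0.02 on HFD, with exact permutation p of 0.865 and 0.778. These tests used values as deposited, where the median of all genes also lay below 0 between diets. As deposited, limma did not call Gm10175 alone, which held most of the sum, between diets. Its difference was -0.12 in WT (adjusted p = 0.245) and -0.13 in iKO (adjusted p = 0.219). After scaling the limma difference of Gm10175 was -0.01 in WT and -0.04 in iKO. Limma p-values were adjusted over all genes tested and those of the permutation test over 4 comparisons, so they cannot be compared directly.

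**Figure D5:**
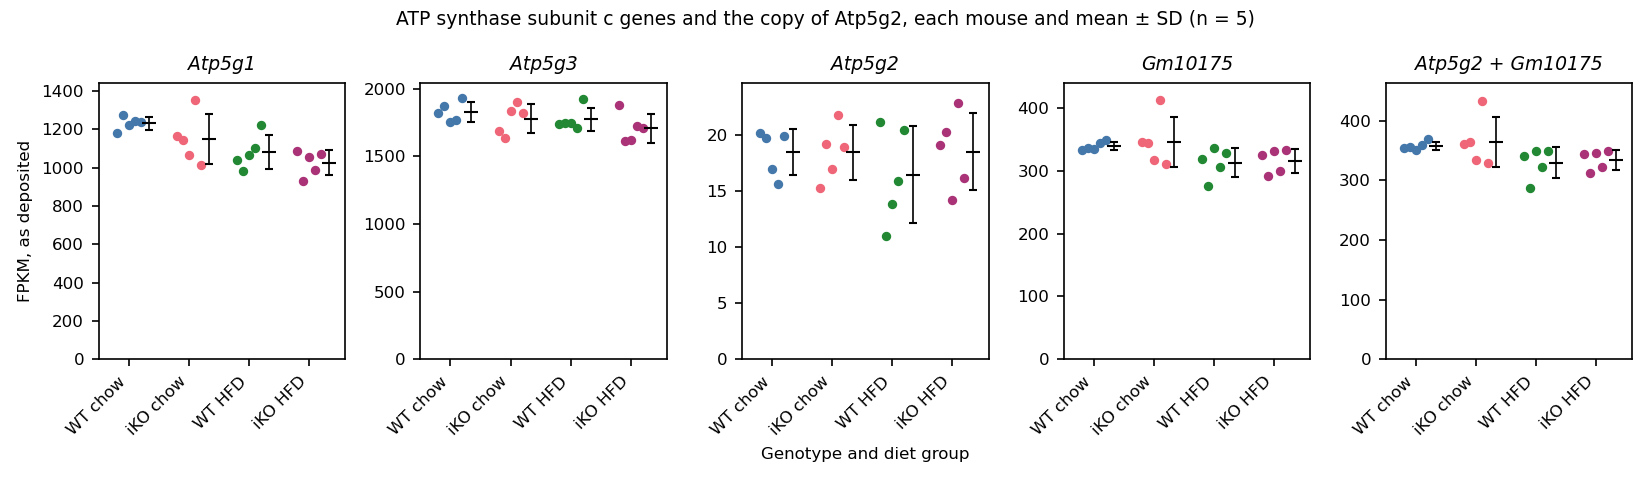
Levels in FPKM, as deposited, of the 3 subunit c genes, of Gm10175 and of the sum of Atp5g2 and Gm10175, for each mouse with mean ± SD (n = 5), each panel on its own axis from 0. Atp5g3 lies at 1613 to 1929 FPKM, Atp5g1 at 929.2 to 1353 and Atp5g2 at 10.9 to 22.9, and the sum in WT HFD stays below that in WT chow.

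The correlation from mouse to mouse was described for subunit genes and for the 14 cytochrome c oxidase factors. Over deviations of 20 libraries from their group means, the median Pearson correlation was 0.54 between subunit genes (351 pairs), 0.09 between cytochrome c oxidase factors (91 pairs) and 0.23 between subunits and factors (378 pairs). Among the 7 factors at 20 FPKM or more it was 0.08 (21 pairs). After scaling the 4 medians were, in the same order, 0.76, 0.22, 0.41 and 0.29. These values describe genes that share libraries and scaling, and carry no test. The within-group SD of the 47 genes had a median of 0.077 on the log2 scale as deposited, against 0.122 over all genes, and of 0.101 against 0.117 after scaling.

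Other genes of the chain were read from lists by name. As deposited, 8.36% of all genes were called lower on HFD in iKO and 7.27% in WT. Whether any list differed from these shares was not tested. Of 37 complex I subunits, 12 fell on HFD in iKO as deposited (median -0.12) and 2 in WT, Ndufs7 and Ndufa12, and none passed between genotypes. Of 16 cytochrome c oxidase subunits, 3 fell in iKO (Cox7a2, Cox7b and Cox7a1) and 2 in WT (Cox7a1 and Cox6b2). On chow Cox6b2, a testis-type isoform, was lower in iKO (adjusted p = 0.000741). Its levels were low, at 2.51 to 4.36 FPKM in WT chow and 0.53 to 1.69 in iKO chow. Between genotypes on HFD it was not called (-0.63, adjusted p = 0.130). Of 23 tested genes for assembly and regulation outside the symbol rule, 6 fell on HFD in iKO and 3 in WT. Among these was Atpif1, the inhibitor of ATP synthase hydrolysis, at -0.36 ± 0.08 in iKO (adjusted p = 0.00455) and -0.33 ± 0.08 in WT (adjusted p = 0.0101). After scaling none of these nuclear lists had a call between diets, and Atpif1 stood at -0.27 in iKO (adjusted p = 0.104).

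The mitochondrially encoded subunits lay on the other side. The mRNA of cytochrome b, the mitochondrial partner of the complex III genes, mt-Cytb, was at 29405, 30694, 30481, 29435 and 29568 FPKM in WT chow and at 32728, 34217, 31910, 33347 and 35083 in WT HFD. In iKO it was at 30091, 26634, 29354, 27142 and 29737 FPKM on chow and at 32149, 30953, 33945, 33511 and 32192 on HFD. All HFD values lay above all chow values of the same genotype. mt-Cytb rose by 0.16 ± 0.04 in WT (adjusted p = 0.0135) and by 0.19 ± 0.04 in iKO (adjusted p = 0.00359), and it was also called after scaling, at 0.27 (adjusted p = 0.0207) and 0.28 (adjusted p = 0.0107). Of the 6 mitochondrially encoded subunits of complexes III, IV and V, only mt-Cytb and, in iKO, mt-Co1 were called. Cycs, which encodes cytochrome c, was not called, with 0.11 in WT (adjusted p = 0.203) and -0.01 in iKO (adjusted p = 0.929).

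Cardiomyocyte markers moved with the diet too: 7 of 10 were called lower in WT HFD and 5 of 10 in iKO HFD as deposited, and 2 and 2 after scaling. As deposited the shares of all genes called lower were 7.27% in WT and 8.36% in iKO. The part of these markers in the diet differences of the 47 genes was not tested.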

How the data were processed

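The deposited values are FPKM per gene, made by the authors, in 1 table per library. Bowtie2, RSEM, DESeq2 and the genome build mm9 are named in the submitters' processing notes, with no versions. The gene IDs match GENCODE M21 (24938 of 25052), an annotation of GRCm38, which conflicts with mm9; coordinates are on GRCm38 by ID. FPKM are not counts, so the count test planned for counts was not run. The 12775 genes that reached 0.5 FPKM in 5 or more libraries entered as log2(FPKM + 1), a scale on which low genes change less. The fit used limma 3.58.1 in R 4.3.3 (intensity trend, robust moderation), 1 mean for each of 4 groups of the 20 libraries, and 5 contrasts. P-values were adjusted by Benjamini-Hochberg within each contrast over all genes tested, with calls at 0.05. The labels name 5 mice per group, and nothing in them names a batch. Library numbers run from RT1 to RT10 on chow and from RT11 to RT20 on HFD. Diet and the order of these numbers therefore cannot be told apart.

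Depth was estimated from the steps that whole reads leave in low FPKM of short genes, because the deposited tables give no totals. It was 12.6 to 31.6 M reads, below the stated depth of about 50 M. The fit was tested on data simulated for 12775 genes, 50 of them shifted by each fold. A 1.25-fold shift was recovered for 58% (genotypes on chow), 58% (genotypes on HFD), 48% (diets in WT) and 58% (diets in iKO), and a 1.1-fold shift for 0% to 6%. Of the simulated calls, in this order, 7.86%, 2.34%, 6.87% and 7.97% were false. Promoter windows came from RefSeq (GRCm38.p6), and coding stretches and read windows from GENCODE M21. Other steps ran in Python 3.11.15, with pandas 2.3.3, numpy 2.4.6, matplotlib 3.10.9 and scipy 1.17.1.

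The genes and lists were chosen with earlier results of these data known. Genes were named when called in a contrast, when they had the smallest p or the widest difference of their role, and as the complex II subunits, subunit c genes and extremes of level. Alternatives were 2 scalings, 2 pseudocounts, 2 filters, limma without trend or robust moderation, library weights, only the groups compared, a fibroblast covariate and leaving out libraries. Leaving out the 5 libraries with high fibroblast scores, and combining scaling with a left-out set or the covariate, were chosen after seeing the data.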

Additional observations from a re-analysis of the deposited data

Results flagged for a closer look

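In 10 of 188 combinations of gene and group of 5, 1 library stood far from the other 4, against 9.4 that chance would give at about 1 in 20 groups. All values are FPKM as deposited. In WT chow, RT5 was low for Sdhaf2, a complex II flavinylation factor, at 18.6, next to 19.6. In iKO chow, RT7 was high for Atp5b at 2472 and for Cox10, which makes haem for cytochrome c oxidase, at 21.4, RT4 was low for Atp5f1 at 551.0, and RT9 was high for Atp5k, subunit e, at 1035. In WT HFD, RT19 was high for Atp5g3 at 1925, RT16 was low for Coa6 at 15.6, and RT18 was high for Cox11 at 10.7. In iKO HFD, RT20 was high for Uqcr11 at 603.4, and RT15 was high for Coa4 at 5.44. Atp5f1 was called between diets in iKO without RT4 as well as with it. No cause was tested.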

How the results depend on the processing

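No paired analysis was possible because the groups share no replicate numbers. No gene of the 47 was called between genotypes or for the interaction under any alternative run. The medians moved with scaling. After median-of-ratios scaling they were -0.076 on chow and -0.113 on HFD between genotypes, and 0.034 in WT and -0.0086 in iKO between diets, with 0 called lower in WT and 0 in iKO. After upper-quartile scaling they were -0.094 on HFD between genotypes, 0.017 in WT and -0.026 in iKO, with 0 and 1 called lower. With no filter on low values, or without trend and robust moderation, 0 were called lower in WT and 4 in iKO. With library weights 11 were called lower in WT and 8 in iKO. Apart from median-of-ratios scaling, the share of all genes called under each alternative is not given here. The counts of the other alternatives therefore cannot be set against a background. With only the groups compared in the fit 1 was called lower in WT, Atp5g1 in place of Atp5o, and 4 in iKO: Cox20, Atp5h, Atp5o and Cox17. With the fibroblast covariate it was 3 and 11, and without the 5 libraries of high fibroblast score 1 in iKO. After scaling without RT1 and RT4 the medians were -0.113, 0.024 and -0.030 (genotypes on HFD, diets in WT and in iKO), with 0 and 1 called lower. After scaling without the 5 libraries the diet medians were 0.034 and 0.034, with 1 called higher in WT (Sdhc), 0 lower in WT and 0 lower in iKO, and Uqcrq turned from -0.16 to 0.046 in iKO. After scaling with the covariate they were 0.026 and -0.034, with 1 higher in WT (Sdhc), 0 lower in WT and 1 lower in iKO (Cox20). The cause was not tested.

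Leaving out 1 library at a time, 0 to 7 genes were called lower in WT and 4 to 11 in iKO. The share of all genes called in these fits is not given here either. The WT count was 0 without RT3, RT8, RT10, RT12, RT14 or RT18, 2 without RT5 or RT7 and 7 without RT19, and the iKO count was 10 without RT9 and 11 without RT19. The medians ran from -0.026 to 0.0049 (genotypes on chow), -0.059 to -0.0041 (genotypes on HFD), -0.093 to -0.055 (diets in WT), -0.114 to -0.076 (diets in iKO) and -0.042 to 0.0019 (interaction). Cox20, Atp5h, Atp5o and Atp5f1 stayed called in iKO in all 20 of these fits. In the simulated data at most 6% of changes of 1.1-fold were recovered. That simulation used the spread of all genes (median SD 0.122) and shifted few of them. The 47 genes had a median SD of 0.077, and the diet comparisons held many calls. The recovered share therefore need not hold for these genes.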
